A study of Mus musculus with 6 samples.

Results

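The neurotrophins and the GDNF family, with the receptors that bind them, were represented by 8 genes: the ligand genes Bdnf, Ntf3 and Gdnf and the receptor genes Ntrk2, Ntrk3, Ngfr, Gfra1 and Ret. They were found by gene name in a table of read counts for 53801 genes in adult mouse brain, each name matched a single gene, and all 8 were among the 23975 genes that passed the filter of at least 10 counts over the samples and were tested. RNA-seq compared one frozen brain hemisphere of each of 3 Bahd1-WT mice (Bahd1+/+) with one of each of 3 Bahd1-KO mice (Bahd1-/-), where both copies of Bahd1, encoding a heterochromatin protein, are inactivated in the whole animal. All 6 mice were of the C57BL/6 strain, aged about 70 weeks and given no treatment. They came from crosses of heterozygous mice, and each sample is 1 mouse. The question was whether transcripts of these genes differ in level between brains with and without Bahd1.

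Neurotrophins are small secreted proteins that keep neurons alive and shape their connections. Each binds a receptor tyrosine kinase of the Trk family, BDNF binding TrkB (Ntrk2) and neurotrophin-3 binding TrkC (Ntrk3), while all of them, also as uncleaved precursors, can bind the p75 receptor (Ngfr), a member of the TNF receptor family. GDNF signals in another way: it binds GFRα1 (Gfra1), which is anchored to the membrane by a lipid, and the pair activates the receptor tyrosine kinase RET. In brain, BDNF is made mainly by excitatory neurons in response to activity, p75 is kept by basal forebrain cholinergic neurons into adulthood, and GDNF is known for its effect on dopamine neurons.

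The 250 bases upstream of an annotated start are shown for Ngfr, the gene of the 8 with the largest fold change before GC content was taken into account, and for the third of 7 Bdnf starts, the only one of its starts with a half-site of the cAMP response element (CRE), the element through which CREB acts on activity-dependent genes. Both are from RefSeq (build GRCm38.p6), which had entries for 6 of the 8 genes, and Ntrk3 and Ret had none in the table used. Capitals mark the GC box (GGGCGG or, on the other strand, CCGCCC) and the CRE half-site (TGACG or CGTCA). The 2 motifs share no overlapping match in these windows.
Ngfr, chr11:95587699-95587948, minus strand: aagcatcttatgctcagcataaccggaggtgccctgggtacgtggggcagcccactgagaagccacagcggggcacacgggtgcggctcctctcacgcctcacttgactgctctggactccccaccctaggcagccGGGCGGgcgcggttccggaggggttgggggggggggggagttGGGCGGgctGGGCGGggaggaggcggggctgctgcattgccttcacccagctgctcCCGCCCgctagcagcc
Bdnf start 3, chr2:109692186-109692435, plus strand: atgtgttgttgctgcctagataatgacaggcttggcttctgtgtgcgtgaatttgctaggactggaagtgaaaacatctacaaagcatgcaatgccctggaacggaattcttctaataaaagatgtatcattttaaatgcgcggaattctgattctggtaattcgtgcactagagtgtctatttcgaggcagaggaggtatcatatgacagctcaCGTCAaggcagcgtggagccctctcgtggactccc
The Ngfr window was 70.4% GC, with 16 CpG dinucleotides and 4 GC boxes, and the Bdnf window was 45.6% GC, with 9 CpG dinucleotides and 1 CRE half-site. Over all 32851 windows of this length in the table, the median GC content was 52.4%, 32.7% held a GC box and 17.8% held a CRE half-site. Each match describes the letters of the window and was not tested as a binding site.

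The libraries held 42297150 to 93557948 counts. Bahd1 had 1383, 844 and 1099 counts in the Bahd1-WT samples and 0, 14 and 1 in the Bahd1-KO samples, so the targeted gene followed the labels. All 8 neuron markers, such as Rbfox3 and Snap25, were above 0 in every sample. Lung genes, such as the surfactant genes, summed to 2.35 to 110 CPM (counts of a gene scaled to the size of the library) in Bahd1-WT and to 0.506 to 1.42 CPM in Bahd1-KO. Choroid plexus markers, mostly Ttr, summed to 273 to 374 and 456 to 1080 CPM, and olfactory epithelium markers to 33.4 to 57.2 and 79.7 to 145. Meninges markers were lower in Bahd1-KO (79.8 to 88 and 67.1 to 78.1), and pituitary markers overlapped. Whether these tissues had a part in the levels below was not tested. The libraries also differed in how gene level varied with GC content: with expressed genes put into 10 bins of GC content, and relative to the mean of the 6 libraries, the median of the richest bin exceeded that of the poorest by -1.27 to -0.61 on the log2 scale in Bahd1-WT, against -0.11, 2.16 and 0.77 in Bahd1-KO samples 1, 2 and 3. Fold changes below are therefore given also from a fit with an offset for GC content and length. The GC content is that of the longest transcript, and the length is that of all annotated exons of the gene joined. The offset removes from a gene what is shared with genes of like GC content and length, whether that came from the libraries or from the brains, and the 2 cannot be told apart here.

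A gene was called if its fold change reached 2 and its adjusted p-value lay under 0.05. In the quasi-likelihood test of edgeR, 0 of the 8 passed, against 0.00834% of all genes tested. At an unadjusted p-value under 0.05, Ngfr was higher in Bahd1-KO and Ntrk3 lower, and the other 6 genes passed in neither direction. Among all genes tested, 19.9% passed this threshold higher and 12% lower. DESeq2 with its normal prior called 1 of the 8, Ngfr, against 9.61% of all genes called higher by the same tool. The median log2 fold change of the 8 genes was 0.0015, against -0.06 for all genes tested. In brain hemispheres, fewer cells that make a transcript and less transcript per cell cannot be told apart.

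**Figure D1:**
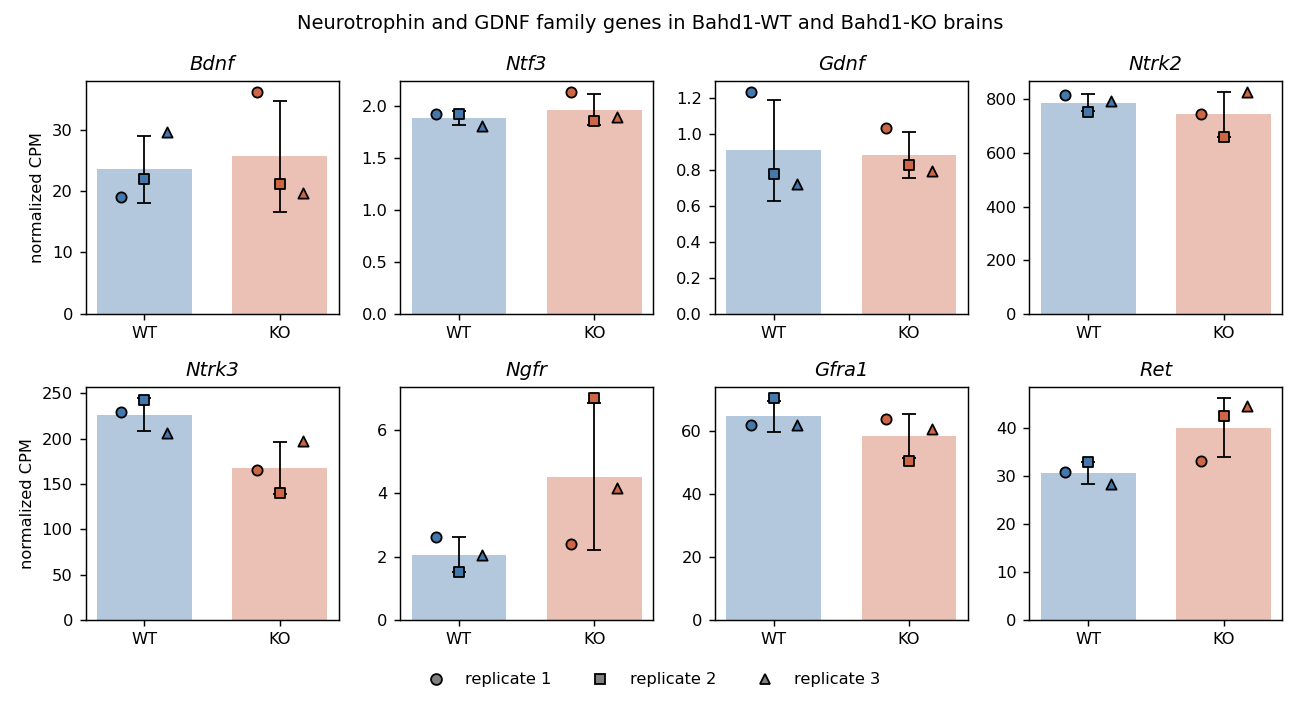
Level of each of the 8 genes in CPM (TMM-normalized) in the brain hemispheres of 3 Bahd1-WT and 3 Bahd1-KO mice, where points are samples, bars are means and error bars are SD. Ntrk3 lay lower and Ret higher in every Bahd1-KO sample than in any Bahd1-WT sample without the GC and length offset, the ranges of both overlapped with it, and the other 6 genes overlapped without it.

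Per kb of exon, the only scale on which genes are compared here, Ntrk2 was the most abundant of the 8, at 40.8 CPM per kb in Bahd1-WT and 38.6 in Bahd1-KO. Gfra1 followed at 11.8 and 10.6, then Ntrk3 at 7.50 and 5.56, Ret at 4.52 and 5.92, and Bdnf at 3.79 and 4.13 CPM per kb. Ntf3, at 1.10 and 1.15, Ngfr, at 0.599 and 1.32, and Gdnf, at 0.248 and 0.241 CPM per kb, were the least abundant. Over all 6 samples, the ranges of Ntrk2 (34.3 to 42.9) and Gfra1 (9.21 to 12.8) overlapped with no other gene. Ntrk3 (4.65 to 8.05), Ret (4.17 to 6.60) and Bdnf (3.07 to 5.82) overlapped with their neighbours in this order, as did Ntf3 (1.06 to 1.25) and Ngfr (0.437 to 2.04), whereas Gdnf (0.197 to 0.336) lay under both. The receptor transcripts Ntrk2, Ntrk3, Gfra1 and Ret thus had higher means than the 3 ligand transcripts in both genotypes, and Ngfr was the receptor that did not. The length used joins all annotated exons of a gene, 30170 bases over 20 transcripts for Ntrk3. It was 19292 bases for Ntrk2 and 5476 for Gfra1. A single transcript can be shorter, so the order of the genes depends on the length taken.

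**Figure D2:**
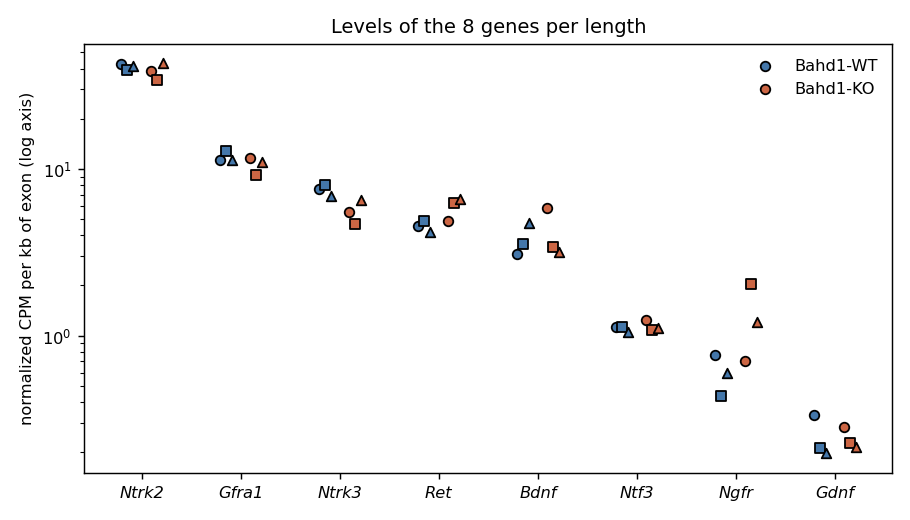
Level of the 8 genes in CPM per kb of exon on a log axis, ordered by the mean over all samples, with circles, squares and triangles for replicates 1, 2 and 3. Ntrk2 ranged from 34.3 to 42.9 and Gdnf from 0.197 to 0.336 CPM per kb over the 6 samples.

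Among the ligands, Bdnf (ENSMUSG00000048482, GRCm38 chr2:109674700-109727007, plus strand) is a gene of several promoters and 11 annotated transcripts, 9.17 Mb from Bahd1 on the same chromosome. It had 19.1, 21.9 and 29.6 CPM in Bahd1-WT samples 1 to 3 and 36.15, 21.2 and 19.7 CPM in Bahd1-KO samples 1 to 3. The highest sample was Bahd1-KO 1 and the lowest Bahd1-WT 1, and the genotypes overlapped. The means were 23.6 ± 5.47 (SD, n = 3) and 25.7 ± 9.10 CPM, a log2 fold change of 0.12 ± 0.28 (SE) with a 95% interval of -0.51 to 0.75 (adjusted p = 0.777, edgeR). The sign turned without Bahd1-KO 1 (-0.18) and without Bahd1-WT 1 (-0.01).

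Bdnf was the gene of the 8 that stood farthest from genes of its GC content. Its longest transcript is 40.9% GC, in the poorest bin of expressed genes, whose median log2 fold change was -0.55. With the offset, Bdnf had 16.5, 17.5 and 25.4 CPM in Bahd1-WT and 34.97, 32.5 and 22.5 CPM in Bahd1-KO. Bahd1-KO 1 and 2 then lay above every Bahd1-WT sample, while Bahd1-KO 3 lay below Bahd1-WT 3. The log2 fold change with the offset was 0.60 ± 0.20 (adjusted p = 0.136, edgeR), at an unadjusted p-value under 0.05, which 9.89% of all genes passed higher in that fit. An antisense gene over Bdnf, Gm45346, had 4 to 21 counts per sample, against 1140 to 2174 for Bdnf.

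Ntf3 (ENSMUSG00000049107, chr6:126101412-126166910, minus strand), encoding neurotrophin-3, was low, with 93 to 177 counts per sample. It had 1.92, 1.93 and 1.81 CPM in Bahd1-WT and 2.14, 1.86 and 1.90 CPM in Bahd1-KO. The samples lay close together and the genotypes overlapped. The log2 fold change was 0.06 ± 0.21, with a 95% interval of -0.42 to 0.53 (adjusted p = 0.871, edgeR), 0.04 with the offset, and -0.08 with upper-quartile factors. Its interval without the offset excluded a change of 2-fold in either direction.

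Gdnf (ENSMUSG00000022144, chr15:7810846-7837575, plus strand), encoding the glial cell line-derived neurotrophic factor, had 45 to 113 counts per sample, the fewest of the 8. Its levels were 1.24, 0.777 and 0.723 CPM in Bahd1-WT and 1.03, 0.830 and 0.795 CPM in Bahd1-KO. Sample 1 was the highest of each genotype, and the Bahd1-KO samples lay within the Bahd1-WT range. The log2 fold change was -0.05 ± 0.29 (adjusted p = 0.915, edgeR) and -0.19 with the offset. It was 0.23 without Bahd1-WT 1, the sample that also had the highest sum of lung genes (110 CPM). Whether lung RNA had a part in the Gdnf level was not tested.

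Among the receptors, Ntrk2 (ENSMUSG00000055254, chr13:58806569-59133970, plus strand), encoding TrkB, had 32377 to 74682 counts per sample. These gene-level counts sum the full-length kinase form and the truncated form that lacks the kinase, the main form in astrocytes, so a shift between them cannot be seen. It had 816, 752 and 794 CPM in Bahd1-WT and 744, 661 and 827 CPM in Bahd1-KO. The highest and the lowest sample were both Bahd1-KO, and the genotypes overlapped. The log2 fold change was -0.08 ± 0.15, with a 95% interval of -0.42 to 0.26 (adjusted p = 0.728, edgeR), and 0.07 with the offset, so its sign depended on the offset.

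Ntrk3 (ENSMUSG00000059146, chr7:78175959-78738012, minus strand), encoding TrkC, had 230, 243 and 207 CPM in Bahd1-WT and 166, 140 and 198 CPM in Bahd1-KO. Every Bahd1-KO sample lay below every Bahd1-WT sample, as did 19.3% of all genes tested. The means were 226 ± 18.3 and 168 ± 28.8 CPM, a log2 fold change of -0.43 ± 0.17 with a 95% interval of -0.82 to -0.04 (adjusted p = 0.127, edgeR). Its longest transcript is 43.6% GC, in a bin of genes whose median log2 fold change was also -0.43. With the offset, Ntrk3 had 190, 199 and 176 CPM in Bahd1-WT and 182, 211 and 207 CPM in Bahd1-KO, the genotypes overlapped, and the log2 fold change was 0.09 (adjusted p = 0.639, edgeR). An antisense gene over Ntrk3, Gm9885, had 94, 51 and 68 counts in Bahd1-WT and 53, 355 and 86 in Bahd1-KO, against 7202 to 21007 for Ntrk3. The 5 listed markers of dentate gyrus granule neurons, all above 0 in every sample, summed to 72.9 to 78.2 CPM in Bahd1-WT and 55.5 to 66.4 in Bahd1-KO, with Prox1 lower (-0.42, and -0.14 with the offset) and C1ql2 higher (1.07, but -0.69 with the offset) at an unadjusted p-value under 0.05 without the offset. Their part in the Ntrk3 level was not tested.

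Ngfr (ENSMUSG00000000120, chr11:95568818-95587735, minus strand), encoding p75, showed the largest fold change of the 8 without the offset, whereas with it Bdnf had the largest. The 3 Bahd1-WT brains gave 240, 93 and 151 counts, or 2.62, 1.51 and 2.06 CPM. The 3 Bahd1-KO brains gave 105, 668 and 242, or 2.41, 7.01 and 4.18 CPM. Bahd1-KO 2 and 3 lay above every Bahd1-WT sample, and Bahd1-KO 1 lay below Bahd1-WT 1. The means were 2.06 ± 0.558 and 4.54 ± 2.32 CPM, 2.20-fold higher in Bahd1-KO with a 95% interval of 1.19 to 4.09 and a log2 fold change of 1.14 ± 0.39 (adjusted p = 0.0973, edgeR). It was the only one of the 8 with an adjusted p-value under 0.1, as 19.5% of all genes had.

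The Ngfr value rested on which samples and which test were used. With its normal prior, DESeq2 put the log2 fold change at 1.06 (adjusted p = 0.0218). In edgeR, it was 0.68 without Bahd1-KO 2 (adjusted p = 0.219) and 1.47 without Bahd1-KO 1 (adjusted p = 0.0114), the only omission of a sample with which it was called. The fit without Bahd1-KO 1 called 3988 genes in all, against 2 with all samples. The longest Ngfr transcript is 58.6% GC, in the richest bin of expressed genes, whose median log2 fold change was 1.401. With the offset, Ngfr had 3.30, 2.64 and 3.08 CPM in Bahd1-WT and 2.46, 2.87 and 3.05 CPM in Bahd1-KO, and the log2 fold change was -0.11 (adjusted p = 0.772, edgeR). Bahd1-KO 2, the sample with the most Ngfr, was also the sample with the strongest excess of GC-rich genes.

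Ngfr is carried in adult brain by cholinergic neurons of the basal forebrain. Of the 5 genes listed as their markers, 3 had an unadjusted p-value under 0.05 higher in Bahd1-KO, as 19.9% of all genes had. Among these were Slc18a3, the vesicular acetylcholine transporter (log2 fold change 2.51), and Chat, choline acetyltransferase (1.00). Slc5a7, the choline transporter, had -0.36 and Gbx1, a transcription factor, 0.08. All 5 were above 0 in every sample. Their summed level, mostly Slc5a7, was 21.3 to 34.3 CPM in Bahd1-WT and 23.3 to 31.1 in Bahd1-KO. With the offset, the log2 fold changes were 0.85 for Slc18a3, 0.37 for Chat, 0.11 for Slc5a7 and -1.19 for Gbx1. The 5 listed Schwann cell markers, cells that also make p75, summed to 31.4 to 37.4 CPM in Bahd1-WT and 13.2 to 26.2 in Bahd1-KO, mostly Cdh19, and 1 of them had an unadjusted p-value under 0.05 higher and 1 lower (Cdh19, -0.93, and -0.37 with the offset). Of the 5, 4 were above 0 in every sample, and Pmp2 was at 0 in all of Bahd1-WT. Whether a different share of either cell type had a part in the Ngfr level was not tested.

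The 2 genes of the GDNF receptor differed in sign, and neither passed the test. Gfra1 (ENSMUSG00000025089, chr19:58235604-58455909, minus strand), encoding the GDNF-binding subunit, had 61.7, 70.3 and 61.7 CPM in Bahd1-WT and 63.8, 50.5 and 60.6 CPM in Bahd1-KO. Bahd1-KO 2 was the lowest sample and the genotypes overlapped. The log2 fold change was -0.15 ± 0.16 (adjusted p = 0.534, edgeR) and -0.18 with the offset, and it was negative under every alternative tried. An antisense gene over Gfra1, Gm16277, had 1 to 9 counts per sample.

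Ret (ENSMUSG00000030110, chr6:118151745-118197718, minus strand), encoding the signalling subunit, had 30.7, 32.8 and 28.2 CPM in Bahd1-WT and 33.05, 42.4 and 44.6 CPM in Bahd1-KO. Every Bahd1-KO sample lay above every Bahd1-WT sample, as did 20.6% of all genes, with Bahd1-KO 1 just over Bahd1-WT 2. The means were 30.6 ± 2.31 and 40.0 ± 6.14 CPM, a log2 fold change of 0.39 ± 0.18 with a 95% interval of -0.01 to 0.79 (adjusted p = 0.166, edgeR). Without Bahd1-KO 1 it was 0.54 (adjusted p = 0.0342, edgeR), still under 2-fold, in a fit that called 3988 genes in all. With the offset it was 0.19 (adjusted p = 0.405, edgeR) and the genotypes overlapped, with 31.4, 37.25 and 29.65 CPM in Bahd1-WT and 34.4, 36.9 and 40.5 CPM in Bahd1-KO. The sign of Ret was positive under every alternative tried. Midbrain dopamine neurons are known to make RET, and their 7 listed markers summed to 55.0 to 68.4 CPM in Bahd1-WT and 68.8 to 76.6 in Bahd1-KO. Of these, Th, which makes the dopamine precursor, had an unadjusted p-value under 0.05 higher (log2 fold change 1.41, and 0.79 with the offset). So did Pitx3, at a mean of 0.0036 and 0.0898 CPM. The other 5 did not, and they differed in sign. Slc6a3, the dopamine transporter, had 0.29 (0.06 with the offset) and En1 0.48 (-0.635). Ddc had -0.01 (0.02), Slc18a2 -0.17 (-0.03) and Foxa1 -0.22 (-0.80). Of the 7, 6 were above 0 in every sample, Pitx3 being the exception. Whether a different share of these neurons had a part in the Ret level was not tested.

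**Figure D3:**
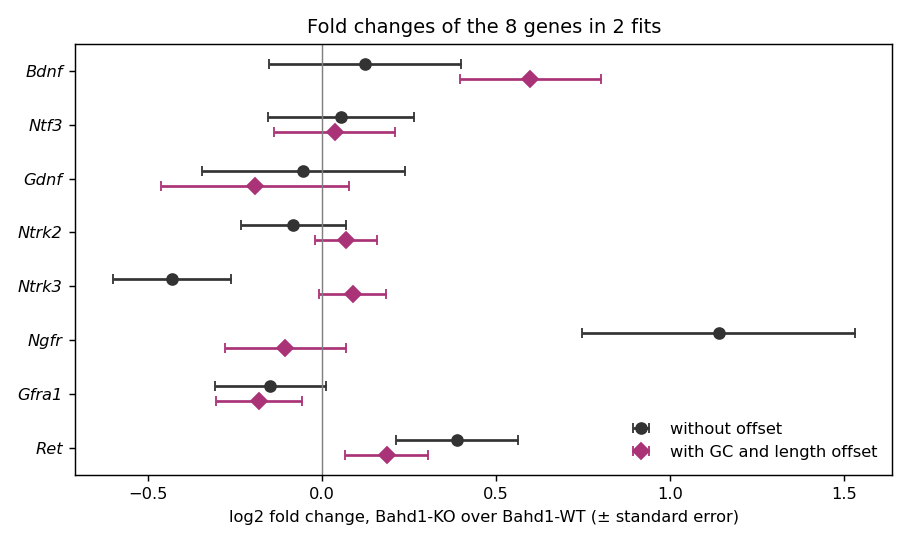
Log2 fold change of each gene, Bahd1-KO over Bahd1-WT (n = 3 each), with its standard error from edgeR, without (circles) and with (diamonds) the GC and length offset. Ngfr went from 1.14 to -0.11, Ntrk3 from -0.43 to 0.09, Ntrk2 from -0.08 to 0.07 and Bdnf from 0.12 to 0.60, while Ntf3, Gdnf, Gfra1 and Ret kept their sign.

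The 8 genes ranged from 40.9% GC in Bdnf to 58.6% in Ngfr. Those of middling GC content lay in bins with medians of -0.11 (Ntrk2 and Ntf3), 0.05 (Gdnf and Gfra1) and 0.27 (Ret). Ntf3, Gdnf, Ntrk2, Ntrk3, Ngfr and Ret lay within 1 SE of the median of their bin. Gfra1 lay below its own by more than that, and Bdnf above.

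**Figure D4:**
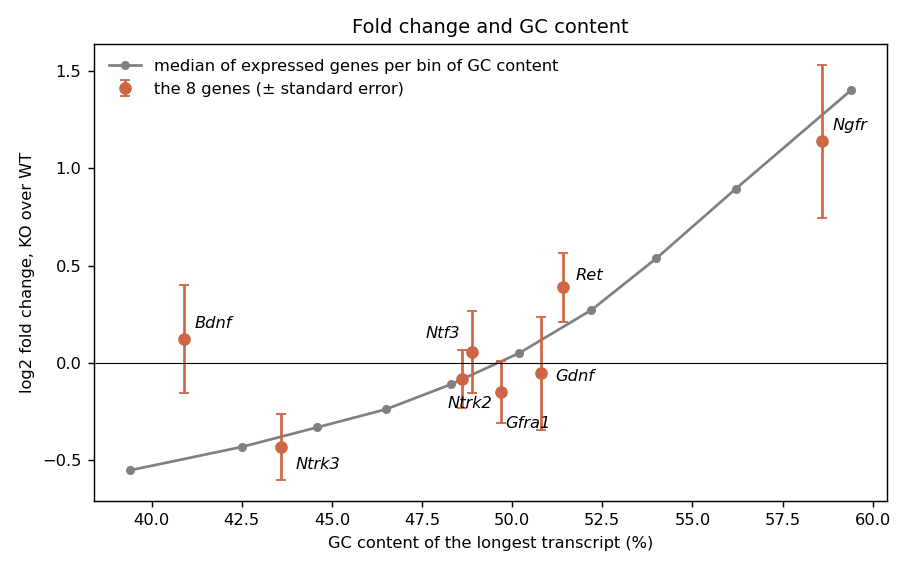
Log2 fold change of the 8 genes (points, ± standard error, without the offset) against the GC content of the longest transcript in percent, with the median fold change of expressed genes in each of 10 bins of GC content (grey line). Bdnf, at 0.12, lies above its bin's median of -0.55, and Ngfr, at 1.14 here and -0.11 with the offset, lies in the bin with a median of 1.401.

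By Pearson's correlation of log2(CPM + 0.5) over the 6 samples, among 14705 or 14706 other genes with a mean of at least 1 CPM, the genes whose pattern was most like each of the 8 were the following. The 3 closest to Bdnf were Wdyhv1 (0.997), Fam174b (0.993) and Faim (0.989), and those to Ntf3 were Shisa2 (0.939), Gm37711 (0.934) and 2810455O05Rik (0.928). Gdnf was followed by CT010467.1 (0.983), Lgr5 (0.977) and Adamts19 (0.976). For the Trk receptors they were Sulf1 (0.996), Sec22c (0.994) and Gm37691 (0.986) with Ntrk2, and mt-Nd5 (0.997), Gm43268 (0.997) and Slc2a12 (0.996) with Ntrk3. Ngfr was followed by Dnm2, Ctbp2 and Cacna1h (0.999 each). Gfra1 was followed by Gm7008 (0.998), Htr2c (0.997) and Gm15728 (0.993), and Ret by Nacc2 (0.996), Vwa7 (0.996) and Syne3 (0.991). The points of each correlation share their libraries, with the depth and GC differences given above, and each of the 8 genes had a neighbour at 0.939 or higher.

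A list of 77 other genes around these ligands and receptors was also examined, of which 74 were tested. By edgeR, 0 were called, 32 had an unadjusted p-value under 0.05 higher in Bahd1-KO, 5 had one lower, and 37 had neither, so that 50% passed, against 31.8% of all genes in both directions. DESeq2 with its normal prior called 15 of the 74, all higher, against 9.61% of all genes. The list's median log2 fold change was 0.40 and its median GC content 52.9%, against -0.06 and 48.7% for all genes tested. With the offset, the median was -0.0058, with 11 genes higher and 6 lower of the 74 at an unadjusted p-value under 0.05, against 9.89% higher and 11.4% lower among all genes.

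Of the 6 other ligands, 4 were tested. Ntf5, encoding neurotrophin-4, had a log2 fold change of 0.13 and turned to -0.98 with the offset, and Artn, encoding artemin, had 0.70 and turned to -0.84 with it and to -0.11 without Bahd1-KO 2. Nrtn, encoding neurturin, was at 0 counts in all Bahd1-WT samples and at 0, 130 and 6 counts in Bahd1-KO. Its level thus came mostly from Bahd1-KO 2. Nrtn was called when Bahd1-KO 1 was left out (adjusted p = 0.0138, edgeR), in a fit that called 3988 genes in all. Pspn was at 0 in every sample and Gdf15 had 0 to 4 counts, too few to be tested.

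Of the 13 other receptors and co-receptors, 12 were tested and 6 had an unadjusted p-value under 0.05, all higher in Bahd1-KO. Among all genes, 19.9% passed higher and 12% lower. With the offset, 2 of the 12 passed higher and 1 lower, against 9.89% and 11.4% of all genes. Rtn4r, the Nogo receptor, which works with p75, had a log2 fold change of 3.18 (adjusted p = 0.0634, edgeR), and Lingo1, its partner, 1.47, against 1.17 and 0.19 with the offset. Without Bahd1-KO 2, Rtn4r was at 1.85 and Lingo1 at 0.74. Gfra2, the neurturin receptor, had 0.49 and 0.03 with the offset. Gfra4 had 0.77 and Sorcs2, which binds precursors of neurotrophins together with p75, 0.91, and both turned negative with the offset (-0.44 and -0.04). Rtn4r (3.67), Lingo1 (1.84) and Sorcs2 (1.13) were called when Bahd1-KO 1 was left out, in a fit that called 3988 genes in all. The 6 that did not pass without the offset were Sort1 (0.11 without and -0.04 with the offset), Sorcs1 (-0.36 and -0.17), Sorcs3 (-0.05 and -0.10), Ncam1 (0.25 and 0.23), Tnfrsf19 (-0.10 and -0.12) and Gfral (0.74 and 1.37, at 0 to 4 counts per sample). With the offset, Ncam1 had an unadjusted p-value under 0.05 (adjusted p = 0.19, edgeR). Gfra3 had 0 to 3 counts and was not tested.

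Among all genes, as above, 19.9% passed an unadjusted p-value under 0.05 higher and 12% lower without the offset. Of 6 genes that process the ligands, 1 passed an unadjusted p-value under 0.05, Furin, a protease that cleaves neurotrophin precursors, with a log2 fold change of 1.53 (0.61 with the offset). Plat, tissue plasminogen activator, had the next lowest p-value, with a log2 fold change of 0.38 (0.64 with the offset). Of 34 receptor adaptors and signalling proteins, 14 passed higher and 5 lower, and the lowest p-values were those of Map2k2, a kinase of the ERK pathway (2.34, and 0.77 with the offset), and Akt1, a kinase downstream of PI3K (1.66, and 0.27 with the offset). Of 8 adaptors of p75, 4 passed, all higher, with the lowest p-values for Arhgdia (1.38, and -0.13 with the offset), and Maged1 (0.72, and 0.29 with the offset). Of 10 genes that BDNF or neuronal activity induces, 5 passed, all higher, with the lowest p-values for Vgf, a secreted neuropeptide precursor (2.11, and 0.22 with the offset), and Nptx2, a secreted synaptic pentraxin (0.86, and -0.27 with the offset). Without Bahd1-KO 2, Map2k2 was at 1.44 and Vgf at 1.23. Without Bahd1-KO 1, Furin (1.88), Map2k2 (2.74), Akt1 (2.02), Arhgdia (1.70) and Vgf (2.42) were called, in a fit that called 3988 genes in all. With the offset, 2 of the 6 processing genes passed higher, 3 of the 34 signalling proteins higher and 2 lower, and 1 higher and 1 lower in each of the p75 adaptors and the induced genes. Apart from the ligands, where Nrtn was at 0 in one genotype, the group medians ran from 0.14 in the ligand-processing genes to 0.61 in the receptors without the offset, and with it from -0.15 in the induced genes to 0.02 in the signalling genes.

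**Figure D5:**
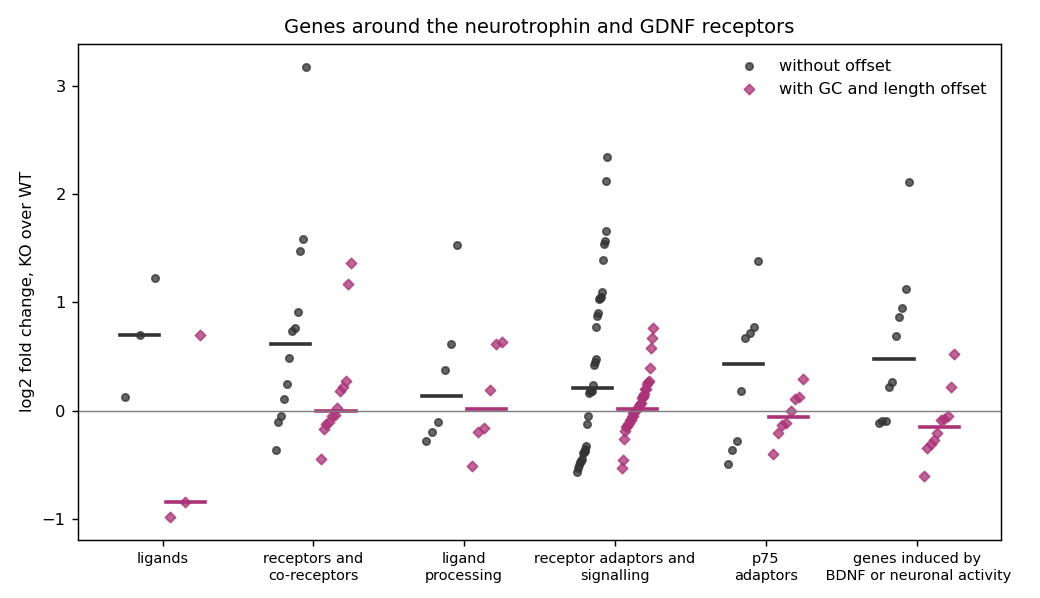
Log2 fold change of the tested genes around the receptors, Bahd1-KO over Bahd1-WT, by role, without (grey circles) and with (diamonds) the GC and length offset, where bars are medians and Nrtn, at 0 counts in every Bahd1-WT sample, is left out. The highest gene without the offset, Rtn4r, lies at 3.18 and at 1.17 with it, while Ntf5 goes from 0.13 to -0.98.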

How the data were processed

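The authors deposited raw counts of reads per gene, as whole numbers with no normalization or filter, in 1 column for each of 6 mice. The table holds 0 columns of other samples. Per the labels and the paper, RNA of one hemisphere was made into libraries, reads were trimmed with cutadapt 1.11, and exon counts came from featureCounts 1.4.6-p3 on GRCm38. The methods name STAR 2.5.0a and also Tophat2 as aligner, so the aligner of this table is uncertain. The paper gives a stranded kit and counting by strand, and the labels name a kit without saying whether it was stranded.

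Genes with at least 10 counts over the 6 samples were tested with edgeR 4.0.16 in R 4.3.3 (TMM, quasi-likelihood fit, genotype only, Benjamini-Hochberg over all 23975 genes). DESeq2 1.42.0 was an alternative. Log2 fold changes are Bahd1-KO over Bahd1-WT. CPM use TMM library sizes. Depth was 42297150 to 93557948 counts, and 3 counts equal 0.0315 to 0.069 CPM, a limit that covers counting error only. For the offset, log2 CPM was fitted per library by natural splines on GC content (5 degrees of freedom) and log length (3), over 13283 expressed genes with GENCODE M21 annotation. Scripts were tested on simulated data. P-values measure the spread between mice.

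The genes and lists were chosen with earlier results of these data known. Named are the 8 genes, the listed ligands and receptors, the 2 genes with the lowest unadjusted p-value in each other group of the list, the 3 genes most correlated with each of the 8, and Bahd1. Markers of neurons, lung, choroid plexus, olfactory epithelium, meninges and pituitary are listed genes named or summed beside a result. So are those of cholinergic, dopamine and dentate granule neurons and of Schwann cells. Alternatives were other library scalings, DESeq2 with and without its prior, robust shrinkage, other filters, leaving out each sample, the replicate block and the offset. The embryonic samples and the other experiments of the study were not analysed here. Some listed genes are not reported here by name.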

Additional observations from a re-analysis of the deposited data

How the results depend on the processing

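Of the 8 genes, Ntrk2, Ntrk3, Ngfr, Gfra1 and Ret kept their sign under every library scaling, filter, tool and omission of a sample. Ntrk2 came as near to 0 as -0.0036, without Bahd1-KO 2. Gfra1 and Ret kept their sign also with the GC and length offset. The count of called genes among all tested was 2. It was 2007 with total counts, 2761 and 2522 by DESeq2 without and with its prior, 2770 with at least 1 count as the filter, 4 with the offset, and 0 to 3988 without 1 sample, the highest without Bahd1-KO 1. Of the 8 genes, 0 were called, against 1 (Ngfr) by DESeq2 with and without its prior and with at least 1 count, and 0 to 1 without 1 sample. Of the list around them, 0 were called, against 13 with total counts, 18 and 15 by DESeq2 without and with its prior, 18 with at least 1 count, and 0 to 24 without 1 sample. The cause was not tested.

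Log2 fold changes turned sign with upper-quartile factors, which shift the median of all genes by -0.14, for Bdnf (-0.0066), Ntf3 (-0.083), Ntf5 (-0.035) and Sort1 (-0.0266), and with total counts for Gdnf (0.021) and Sorcs3 (0.027). Without 1 sample, Bdnf ranged from -0.18 to 0.32, Gdnf from -0.20 to 0.23, Ntf5 from -0.27 to 0.34, Artn from -0.11 to 1.18 and Sorcs3 from -0.10 to 0.0068. With the offset they turned for Ntrk2 (0.070), Ntrk3 (0.089), Ngfr (-0.11), Ntf5 (-0.98), Artn (-0.84), Gfra4 (-0.44), Sort1 (-0.0365), Sorcs2 (-0.045), Arhgdia (-0.13) and Nptx2 (-0.27). Bahd1-KO was the higher genotype for 79.6% of the genes with a change of 2-fold or more and an unadjusted p-value under 0.05, 67.2% with upper-quartile factors, 68.1% without Bahd1-KO 2 and 42.7% with the offset.

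Samples of both genotypes are numbered 1 to 3, but come from different mice, and the labels give no pairing. Deviations of same-numbered samples correlated at -0.66 to -0.14. These deviations also carry the GC differences between libraries, so they cannot decide whether same-numbered samples share anything else. A replicate block called 7 genes and 0 of the 8 (Ngfr 1.04, adjusted p = 0.214, edgeR), and 0 of the list. The block with the offset called 9 genes and 0 of the 8, and gave Ntrk2 0.069, Ntrk3 0.088, Ngfr -0.103, Ntf5 -1.004, Artn -0.83, Gfra4 -0.44, Sort1 -0.039, Sorcs2 -0.045, Arhgdia -0.13 and Nptx2 -0.35.

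With 3 mice per genotype and standard errors of 0.15 to 0.39 on the log2 scale, small changes of these genes were not detectable. Gdnf, at 45 to 113 counts, and Ntf3, at 93 to 177, had the fewest counts behind them.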
